A study of Mus musculus with 6 samples.

Results

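The 9 genes described here encode the estrogen, progesterone, glucocorticoid and mineralocorticoid receptors (Esr1, Esr2, Pgr, Nr3c1 and Nr3c2), the steroid 5α-reductases (Srd5a1, Srd5a2 and Srd5a3) and the receptor-binding immunophilin Fkbp5. They were chosen by symbol out of 24063 gene symbols, with the transcript of the highest mean count standing for each gene. RNA sequencing was done on penile tumors from 3 SA mice and on normal penile epithelium from 3 WT mice, all 5 months old. The SA genotype is PB-Cre+ Smad4 L/L Apc L/L, in which Cre is driven by the androgen-responsive probasin promoter and deletes both floxed tumor suppressor genes. The tumors arose without carcinogen. The controls are labelled wild type and were C57BL/6, with no Cre or floxed allele given, whereas the strain background of the SA mice is not given in the labels, so genotype, Cre, tumor growth and any strain difference cannot be told apart. Each sample was a piece of bulk tissue, and fewer cells of a type and less RNA per cell cannot be told apart.

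Steroid receptors of this class are transcription factors that sit in the cytoplasm or nucleus with Hsp90 chaperones until a hormone binds. The glucocorticoid and mineralocorticoid receptors both bind corticosteroids, and the estrogen and progesterone receptors serve the sex steroids. Fkbp5 lowers the hormone affinity of the glucocorticoid receptor and is itself one of the genes that glucocorticoids, androgens and progestins induce. The 5α-reductases Srd5a1 and Srd5a2 convert testosterone to dihydrotestosterone, the androgen that shapes the male external genitalia, while Srd5a3 is known mainly for making the dolichol needed in protein N-glycosylation.

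The libraries held between 23828283 and 110509147 counts over the gene rows, and that of SA tumor 3 was 4.42 times the median of the other 5. The smallest level visible at this depth, taken as 3 counts, lay between 0.0244 and 0.137 CPM, which is a count scaled to a fixed library size. Smad4 measured 36.6, 36.1 and 46.1 CPM in the SA tumors and 61.2, 69.7 and 72.5 CPM in the WT penises. Apc was higher in the tumors, at 253, 194 and 197 CPM against 62.5, 85.3 and 91.1 CPM, and the Wnt target Axin2 reached 368, 273 and 245 CPM against 18.6, 21.5 and 22.1 CPM. Counts over whole transcripts do not test the removal of floxed exons. Epithelial keratins were abundant in both groups, yet the summed level of 16 stratified epithelium markers was 37130 to 42227 CPM in the tumors and 84481 to 93899 CPM in the WT penises, with 9 lower and 2 higher. All 10 smooth muscle markers were lower in the tumors, with sums of 109 to 237 CPM against 1918 to 2532 CPM, so the tissue labelled normal epithelium also held muscle transcripts. The sums of 12 fibroblast markers ran from 1729 CPM in SA tumor 1 to 5472 CPM in SA tumor 3, and from 6739 to 7106 CPM in the WT penises, and 4 of these genes were lower and 2 higher, with 1 lower without WT penis 1 or 3, 2 without WT penis 2 or SA tumor 2, and 6 without SA tumor 1. Granulocyte markers summed to 1457 to 2542 CPM in the tumors and 84.9 to 152 CPM in the WT penises, with 7 of 8 tested markers higher.

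Fkbp5 and the glucocorticoid receptor Nr3c1 were lower in SA tumors, by 6.68-fold and 2.92-fold in mean CPM, and Esr1 was 2.04-fold higher. The other tested members, Pgr, Nr3c2, Srd5a1, Srd5a2 and Srd5a3, did not pass the adjusted p threshold of 0.01, and Esr2 had too few counts to be tested. Of the 8 members tested, 3 passed (37.5%), 1 higher and 2 lower, in a comparison in which 37.6% of 16336 genes passed, 20.1% higher and 17.5% lower. The members as a group were thus called as often as genes at large. The median log2 fold change of the 8 tested members was -0.23, beside 0.03 over every gene tested. Fkbp5 alone was also past 2 in the size of its log2 fold change, the second threshold, which 13.0% of all genes passed together with the first (9.41% higher and 3.59% lower). The groups did not overlap for 5 of the 8, 1 higher and 4 lower in the tumors, and for 63.4% of all genes, 32.7% higher and 30.7% lower.

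**Figure D1:**
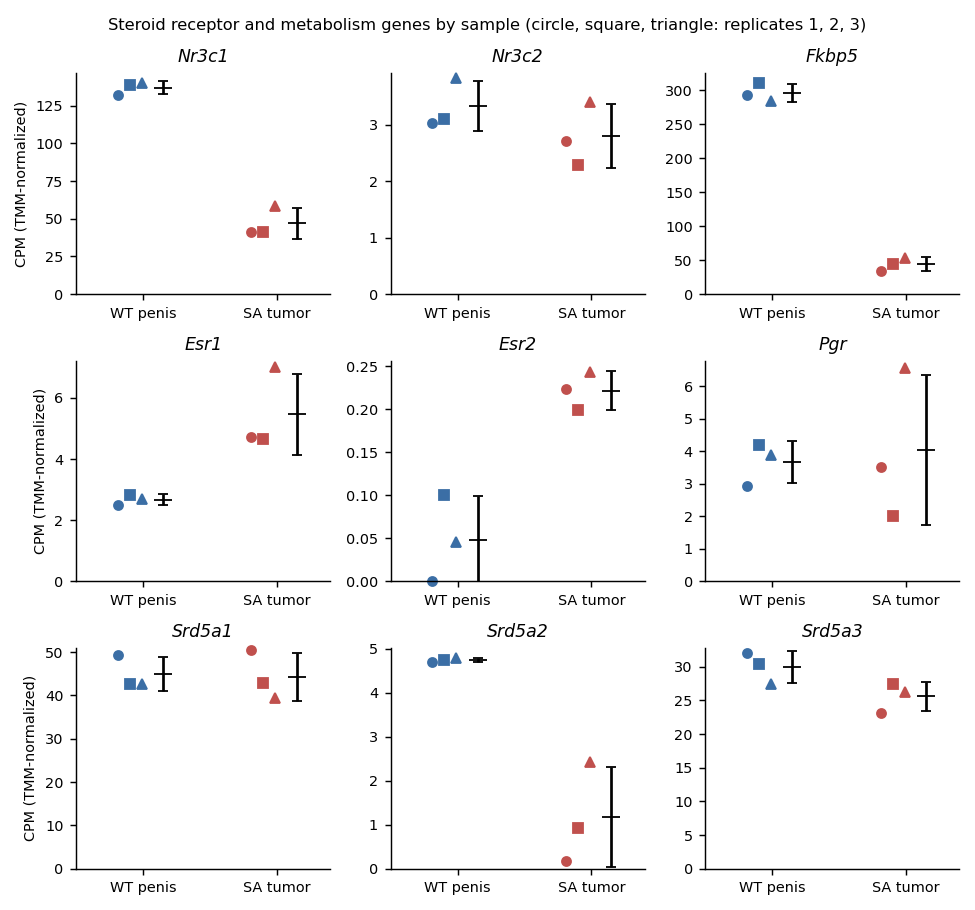
Normalized level of each of the 9 genes in every sample, in CPM after trimmed mean of M-values (TMM) scaling on a linear axis that starts at 0 and has its own range in each panel, with circles, squares and triangles for replicates 1, 2 and 3 and bars for the mean and SD of 3 samples (the bar of Esr2 in WT penises is clipped at 0). Nr3c1 and Fkbp5 of every SA tumor lie below every WT penis, Esr1 lies above, and the values of Srd5a1, Pgr and Nr3c2 mix.

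Nr3c1 (NM_008173), the glucocorticoid receptor gene on chromosome 18, measured 41.4, 41.0 and 58.5 CPM in the SA tumors and 132, 139 and 140 CPM in the WT penises. The highest tumor stayed well under the lowest WT penis, and the WT values differed little among themselves. The log2 fold change was -1.54 ± 0.149 (SE, n = 3 per group), with an adjusted p of 6.34e-05 by edgeR's quasi-likelihood test. The decrease passed in all 16 alternative analyses, with log2 fold changes from -1.73 to -1.26. The sums of the epithelial, smooth muscle and fibroblast markers were also lower in the tumors, and their part in this difference was not tested. The genes whose profile over the 6 samples lay closest to Nr3c1 were Elovl5, a fatty acid elongase, and She, an adaptor protein gene. Their centred log2 CPM values differed from those of Nr3c1 by a root mean square of 0.0427 and 0.0429.

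Nr3c2 (NM_001083906), the mineralocorticoid receptor gene, lies at chr8:76898083-77245012 (GRCm38.p6). Its level was 2.71, 2.28 and 3.40 CPM in the SA tumors and 3.03, 3.10 and 3.83 CPM in the WT penises. The groups overlapped, and the log2 fold change of -0.23 ± 0.243 (SE) had a 95% interval of -0.79 to 0.32 and an adjusted p of 0.451. Gm10649 overlaps Nr3c2 on the opposite strand, and the strand setting of the counting is not given in the sources used here, so reads of the pair may be mixed. The ratio of Nr3c1 to Nr3c2, taken from TPM, a level scaled for transcript length and library size, within each sample, was 9.85, 11.6 and 11.1 in the tumors and 28.2, 28.9 and 23.6 in the WT penises. Every tumor had a smaller excess of Nr3c1 over Nr3c2 than any WT penis. The log2 ratios differed by -1.31, with p = 0.1 in an exact two-sided permutation test, the smallest value that 3 against 3 samples allow.

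Fkbp5 (NM_010220), the immunophilin gene at chr17:28398753-28486149 on the minus strand, measured 34.2, 45.0 and 53.7 CPM in the SA tumors. In the WT penises it measured 293, 311 and 284 CPM. No tumor came near the WT range. Its fold change on the log2 scale was -2.74 ± 0.165 (SE, n = 3 per group) with an adjusted p of 5.87e-06, and it passed in all 16 alternatives, with values from -2.90 to -2.45. The same marker sums that moved beside Nr3c1 moved here, and their part was not tested. The nearest profiles were those of Col17a1, the hemidesmosomal collagen of basal keratinocytes, at a root mean square difference of 0.126, and of AU021092 at 0.127. Col17a1 fell from 2870 ± 349 to 430 ± 115 CPM (mean ± SD), a log2 fold change of -2.74 with an adjusted p of 2.26e-05. As Col17a1 was picked for its match to Fkbp5, its decrease is no separate support.

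The upstream sequences of the 2 receptor-pathway genes that were called and have an entry in the RefSeq promoter table, and of Srd5a2, whose groups did not overlap, are shown so that a reader can see what precedes their starts. Each is the 250 bases before the annotated start on GRCm38.p6, written 5′ to 3′ on the strand of the gene. Capitals mark CCAAT and GGGCGG, the CCAAT and GC boxes common in promoters, on either strand (ATTGG and CCGCCC on the other).
Fkbp5, chr17:28486150-28486399, minus strand: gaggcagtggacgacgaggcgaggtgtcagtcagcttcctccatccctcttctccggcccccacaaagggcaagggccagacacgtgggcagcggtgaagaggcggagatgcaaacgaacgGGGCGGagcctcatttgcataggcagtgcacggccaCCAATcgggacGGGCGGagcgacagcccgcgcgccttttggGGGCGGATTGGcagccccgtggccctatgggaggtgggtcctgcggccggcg
Esr1, chr10:4611739-4611988, plus strand: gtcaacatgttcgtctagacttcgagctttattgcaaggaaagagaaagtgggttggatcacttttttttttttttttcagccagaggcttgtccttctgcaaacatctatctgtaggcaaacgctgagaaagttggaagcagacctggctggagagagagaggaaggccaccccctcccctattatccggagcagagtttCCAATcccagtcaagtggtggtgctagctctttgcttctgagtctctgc
Srd5a2, chr17:74047861-74048110, minus strand: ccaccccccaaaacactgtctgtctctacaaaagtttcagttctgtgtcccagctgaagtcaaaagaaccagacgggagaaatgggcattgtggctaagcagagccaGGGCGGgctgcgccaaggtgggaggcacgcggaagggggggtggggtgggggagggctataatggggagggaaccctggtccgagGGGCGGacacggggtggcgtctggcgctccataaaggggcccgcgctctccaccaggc
The Fkbp5 window held 3 GC boxes and 2 CCAAT boxes and was 68.0% G and C, the last GC box running directly into the last CCAAT box. The Esr1 window held 1 CCAAT box and no GC box and was 47.6% G and C. The Srd5a2 window held 2 GC boxes and no CCAAT box. Over 9 member windows in the table, with Esr1 entered by 2 starts, 6 held CCAAT and 6 held GGGCGG, against 33.8% and 32.7% of all 32851 windows of this length. AGAACA, the core bound by the receptors of the Nr3c1, Nr3c2 and Pgr genes, was in 0 of the 9 and in 16.1% of all windows. GGTCA, the core bound by estrogen receptors, was in 2 of the 9 and in 35.2% of all windows. CTTTGA, bound by TCF and LEF factors, was in 1 of the 9, that of Pgr, and in 13.8% of all windows. The palindromes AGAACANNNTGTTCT and GGTCANNNTGACC were in 0 of the 9 and in 0.00913% and 0.0639% of all windows. These windows are short, and a match is a description of letters and not of binding.

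The listed genes known to respond to glucocorticoids moved mostly downward. The list was chosen with earlier results of these data known, so its shares are a description and not a test. Of 26 listed genes, all tested, 14 were lower (53.8%) and 3 higher in SA tumors, with a median log2 fold change of -1.15, against 17.5% lower and a median of 0.03 over every gene. The counts include Fam107a among the lower genes and Tat among the higher, whose calls are no support, as given below. Summed, the list gave 2548 to 2717 CPM in the tumors and 5018 to 6021 CPM in the WT penises. Over the 16 alternatives 10 to 16 genes were lower and 0 to 4 higher, with 0 higher without SA tumor 2 or without WT penis 2 and 1 higher without WT penis 1 or with the replicate block. The list summed lowest among WT penises in WT penis 1 (5018 CPM, against 6021 and 5428 CPM). Many of these genes also respond to stress, circadian time or differentiation, and the epithelial marker sum was also lower in the tumors, whose part was not tested.

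Zbtb16, a zinc finger transcription factor, had the largest decrease of the list. It measured 1.6, 2.88 and 4.6 CPM in the SA tumors and 60.4, 74.2 and 86.8 CPM in the WT penises, a log2 fold change of -4.53 ± 0.363 (SE, adjusted p = 5.71e-05). Fam107a, a stress-induced actin-binding protein gene, measured 0.186, 0.563 and 0.349 CPM against 5.83, 6.81 and 12.5 CPM, a log2 fold change of -4.51 (adjusted p = 6.93e-05). Fam107a passed the low-count filter only through the WT penises, so its call is no support. Tsc22d3, which encodes the glucocorticoid-induced leucine zipper, measured 15.4, 31.9 and 33.1 CPM against 116, 192 and 214 CPM, a log2 fold change of -2.69 (adjusted p = 0.000817). For all of these genes the groups were apart, and WT penis 1 was the lowest WT sample. Further members of the list that fell were Klf9 (-1.73), Errfi1 (-1.51), Klf15 (-1.44), Per1 (-1.40), Mt1 (-1.31), Sgk1 (-1.18), Glul (-1.17), Mt2 (-1.04), Anxa1 (-0.78), Nfkbia (-0.70) and Ddit4 (-0.67), all on the log2 scale. The genes that rose were Cdkn1c, a cyclin-dependent kinase inhibitor, at 1.26 (called in 13 of 16 alternatives), Pdk4, a kinase that restrains pyruvate oxidation, at 0.84 (12 of 16), and Tat, a tyrosine aminotransferase listed below 1 CPM in every sample. With a mean of at least 50 counts required, 25 genes of the list were tested and 2 were higher. Tat is too scarce for its call to be support.

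**Figure D2:**
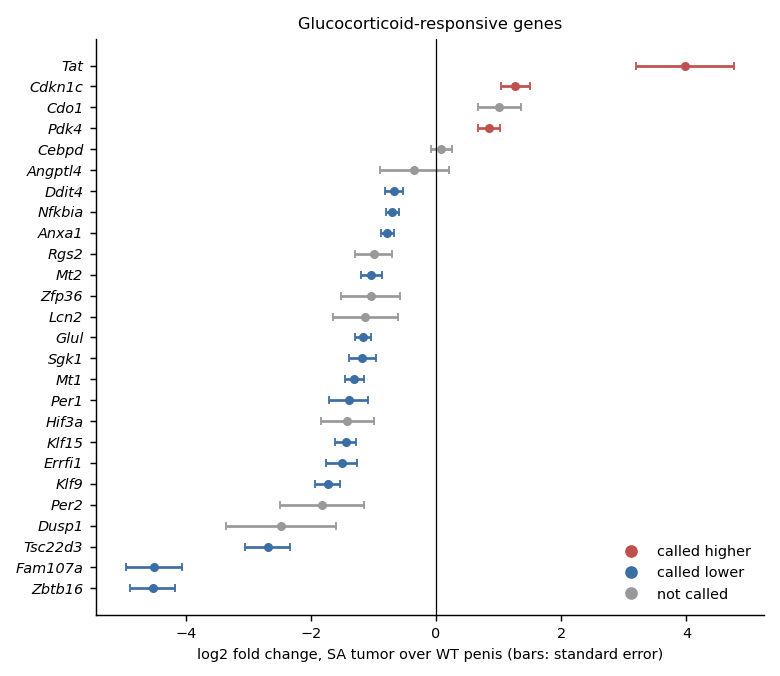
Log2 fold change of SA tumors over WT penises for the 26 glucocorticoid-responsive genes, with bars for the standard error and colour for the call at an adjusted p under 0.01. Points of 14 genes called lower (blue) lie left of 0 and 3 called higher (red) lie right of it.

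Esr1 (NM_007956), the estrogen receptor alpha gene at chr10:4611989-5005633, measured 4.72, 4.67 and 6.99 CPM in the SA tumors and 2.49, 2.84 and 2.69 CPM in the WT penises. Each tumor exceeded every WT penis, and SA tumor 3 stood highest. The log2 fold change was 1.04 ± 0.235 (SE, n = 3 per group) with an adjusted p of 0.00599. The call was held in 11 of 16 alternatives and lost in the model with the replicate block (1.01, adjusted p = 0.0148). It was also lost without SA tumor 3 (0.81, adjusted p = 0.0112), without WT penis 1 (0.98, 0.0258), without WT penis 2 (1.07, 0.0242) and without WT penis 3 (1.02, 0.0232). The profiles nearest to Esr1 were those of Rtp4, an interferon-induced receptor transporter gene, and Specc1, at root mean square differences of 0.0689 and 0.0747.

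Esr2 (NM_010157), the estrogen receptor beta gene at chr12:76120419-76177259, had counts of 6, 6 and 30 among SA tumors, and its WT libraries had 0, 3 and 1. It was the scarcest member in both groups and did not pass the low-count filter, so it was not tested in the main analysis. Scaled for depth, the ratio of tumor to WT counts was 4.31, with a 95% interval of 1.56 to 16.6 that covers counting error only. Without the filter its log2 fold change was 2.02 (adjusted p = 0.054). With DESeq2 it was 2.10 (adjusted p = 0.15), and neither passed. The sum of its 3 transcript rows, in which the same reads were counted repeatedly, gave 2.07 (adjusted p = 0.0278).

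Pgr (NM_008829), the progesterone receptor gene and a classic target of estrogen receptor alpha, lies at chr9:8898900-8968611. It measured 3.53, 2.02 and 6.55 CPM in the SA tumors and 2.94, 4.21 and 3.87 CPM in the WT penises. The tumors spread on both sides of the WT range. Its log2 fold change was 0.16 ± 0.400 (SE), with a 95% interval of -0.76 to 1.08 and an adjusted p of 0.761. SA tumor 3 set the sign, since without it the value was -0.41.

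Of the 24 genes listed as responsive to estrogen or progesterone, 20 were tested, 5 were higher (25%) and 3 lower (15%) in SA tumors, near the 20.1% and 17.5% of all genes, with a median log2 fold change of 0.46. The higher count was 3 without WT penis 3, and the lower count was 2 without either of SA tumors 2 and 3 or of WT penises 2 and 3. With DESeq2, 9 of 24 tested genes were higher. Scaling by library totals only, which moved all genes upward, gave 10 of 20. Greb1, a cofactor of estrogen receptor alpha and one of its induced genes, measured 57.7, 38.7 and 40.3 CPM in the tumors and 2.17, 2.17 and 1.28 CPM in the WT penises. It rose by 4.59 on the log2 scale (SE 0.253, adjusted p = 4.15e-06), with the groups far apart. Hand2, a stromal transcription factor induced by progesterone in the uterus, rose by 2.86, and the proto-oncogene Myb by 1.92. Wnt4 measured 95.5, 142 and 120 CPM against 479, 393 and 394 CPM and fell by 1.83 on the log2 scale. Foxo1 fell by 1.1 and Celsr2 by 0.70, the latter called in 10 of 16 alternatives.

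Srd5a1 (NM_175283), the 5α-reductase found in skin and many other tissues, lies at chr13:69573449-69611485. It measured 50.4, 43.0 and 39.4 CPM in the SA tumors and 49.4, 42.7 and 42.7 CPM in the WT penises. In CPM the groups overlapped almost fully. In TPM, which lacks the TMM scaling, they were apart, at 33.8, 27.6 and 27.0 in the tumors against 23.7, 22.3 and 23.1. Its log2 fold change was -0.02 ± 0.123 (SE), with a 95% interval of -0.31 to 0.26 and an adjusted p of 0.888. Gm17108 overlaps Srd5a1 on the same strand, so some reads may belong to either gene.

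Srd5a2 (NM_053188), the 5α-reductase of the male urogenital tract at chr17:74014891-74047860, measured 0.186, 0.927 and 2.43 CPM in the SA tumors. In the WT penises it measured 4.70, 4.74 and 4.78 CPM. Every tumor lay below every WT penis, but the tumors differed widely among themselves while the WT penises did not. The log2 fold change was -1.88 ± 0.647 (SE), with a 95% interval of -3.39 to -0.37 and an adjusted p of 0.0415 that misses the threshold. Leaving out SA tumor 3, the highest tumor, gave -3.05 with an adjusted p of 0.00133, and DESeq2 gave -1.98 with an adjusted p of 0.00177. The SA tumors had the same order in Srd5a2 as in the summed markers of fibroblasts (1729, 4395 and 5472 CPM), smooth muscle (109, 189 and 237 CPM), leukocytes (137, 267 and 398 CPM), endothelium (218, 271 and 381 CPM), adipocytes (6.65, 12.3 and 15.8 CPM) and melanocytes and Schwann cells (50.2, 60.4 and 63.3 CPM). The part of these cells in the difference was not tested. Other marker sums ranked SA tumors 1, 2 and 3 otherwise. These were stratified epithelium (38578, 42227 and 37130 CPM), granulocytes (1756, 1457 and 2542 CPM) and skeletal muscle (11.9, 11.4 and 10.3 CPM). Prostate and preputial gland (172, 235 and 146 CPM) and proliferation markers (589, 570 and 612 CPM) did so too. Library counts rose in the same order as Srd5a2, and 3 tumors can share an order by chance. CT025731.1 overlaps Srd5a2 on the same strand and may share reads with it, and SA tumor 1 had 5 counts of Srd5a2 in all.

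**Figure D3:**
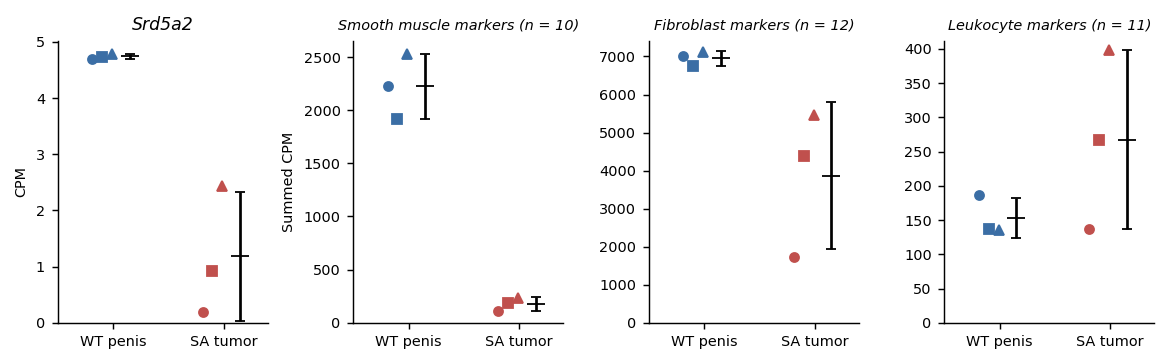
Srd5a2 in CPM and the summed CPM of 10 smooth muscle, 12 fibroblast and 11 leukocyte markers in every sample, on linear axes from 0, with circles, squares and triangles for replicates 1, 2 and 3 and bars for the mean and SD of 3 samples. Srd5a2, smooth muscle and fibroblast values are lower in every SA tumor than in every WT penis, the leukocyte sums overlap between the groups, and all 4 panels rank the 3 tumors alike. Marker lists that rank the tumors otherwise are not drawn.

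Srd5a3 (NM_020611), at chr5:76140273-76155503, measured 23.2, 27.4 and 26.3 CPM in the SA tumors and 32.1, 30.4 and 27.4 CPM in the WT penises. The highest tumor and the lowest WT penis both rounded to 27.4 CPM, and the groups did not overlap. In TPM they did overlap, and the tumor mean was the higher (25.7 against 23.2 TPM). The log2 fold change was -0.22 ± 0.116 (SE), with a 95% interval of -0.49 to 0.04 and an adjusted p of 0.136. The TPM ratio of Srd5a1 to Srd5a3 was 1.44, 1.04 and 0.993 in the tumors and 1.02, 0.931 and 1.04 in the WT penises. The log2 ratios differed by 0.20 (p = 0.4, exact two-sided permutation test), and SA tumor 1 had the highest ratio.

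Of 37 enzymes of steroid synthesis and conversion, 22 were tested, 5 were higher and 2 lower in SA tumors (31.8% called, near the 37.6% of all genes), with a median log2 fold change of 0.07. These counts include Sult1e1, Hsd17b2 and Akr1c18, whose calls are no support, as given below. Sult1e1, the sulfotransferase that inactivates estrogens, measured 0.186, 0.0662 and 0.707 CPM in the tumors and 49.1, 44.4 and 57.5 CPM in the WT penises. It fell by 6.83 on the log2 scale (SE 0.513, adjusted p = 4.87e-05), with the groups far apart. Sult1e1 passed the low-count filter only through the WT penises, so its call is no support. Por, the reductase that feeds electrons to microsomal P450 enzymes, fell by 0.70, from 211 ± 8.73 to 130 ± 8.99 CPM (mean ± SD). Hsd17b2, which oxidizes estradiol and testosterone to weaker steroids, measured 5.61, 5.69 and 3.35 CPM in the tumors. It had 3 counts in all WT libraries together, and the depth-scaled ratio was 101, with a 95% counting interval of 34.3 to 490 (adjusted p of the fit, 5.86e-05). Hsd17b2 passed the low-count filter only through the tumors, so its call is no support.

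Akr1c18, which inactivates progesterone, measured 9.66, 12.1 and 4.88 CPM in the SA tumors. It measured 0.0452, 0.0668 and 0.137 CPM in the WT penises and had 6 counts there in all, and the ratio was 84.1 (95% counting interval 38.5 to 229, adjusted p = 2.51e-05). Akr1c18 too passed the low-count filter only through the tumors, so its call is no support. Cyp11a1, the enzyme that opens steroid synthesis by cleaving the cholesterol side chain, was at 3.47 ± 0.469 against 1.02 ± 0.346 CPM, a log2 fold change of 1.78 (adjusted p = 0.00147). Hsd17b7 (1.33) and H6pd (0.96) were the other enzymes that rose on the log2 scale. The glucocorticoid-activating enzyme Hsd11b1 measured 5.54, 22.6 and 27.7 CPM in the tumors and 16.5, 14.0 and 15.1 CPM in the WT penises, with no call (adjusted p = 0.646). The glucocorticoid-inactivating enzyme Hsd11b2 measured 1.41, 2.15 and 1.45 CPM against 0.452, 0.601 and 0.911 CPM, a log2 fold change of 1.35 with an adjusted p of 0.0127 that misses the threshold.

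**Figure D4:**
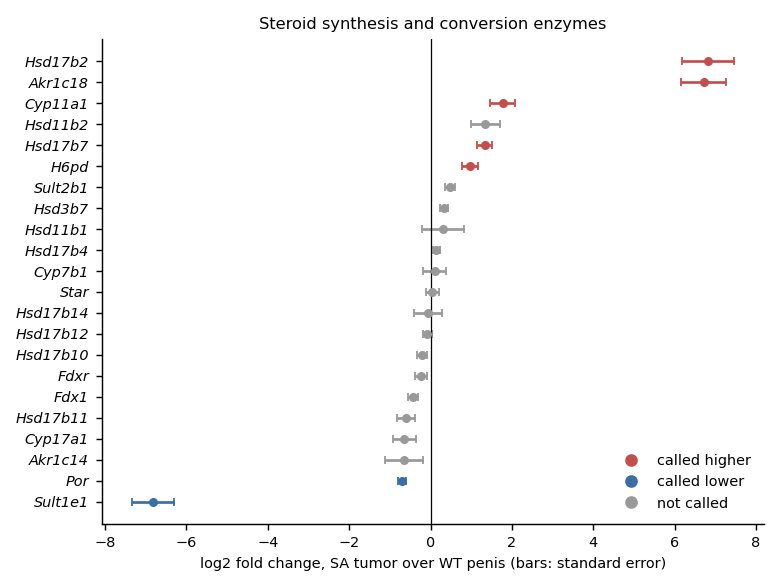
Log2 fold change of SA tumors over WT penises for the 22 tested enzymes of steroid synthesis and conversion, with bars for the standard error and colour for the call at an adjusted p under 0.01. Hsd17b2 and Akr1c18 lie farthest right and Sult1e1 farthest left, and most points lie near 0 and are not called, and the fitted values of Hsd17b2 and Akr1c18 rest on 3 and 6 WT counts.

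Compared per length as TPM, which lacks the TMM scaling of CPM, the members ranked differently in the 2 groups. In the WT penises Fkbp5 was highest at 105 ± 7.69 TPM (mean ± SD, n = 3), followed by Nr3c1 at 29.8 ± 2.71 TPM. Srd5a3 at 23.2 ± 0.830 TPM and Srd5a1 at 23.1 ± 0.686 TPM came next, with ranges that overlapped. Srd5a2 had 7.62 ± 0.529 TPM and Nr3c2 1.12 ± 0.208 TPM. Esr1 at 0.850 ± 0.0990 TPM and Pgr at 0.736 ± 0.166 TPM overlapped, and Esr2 was last at 0.0207 ± 0.0211 TPM.

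In the SA tumors Srd5a1 was highest at 29.5 ± 3.79 TPM. Srd5a3 (25.7 ± 1.97 TPM), Fkbp5 (20.3 ± 4.75 TPM) and Nr3c1 (13.2 ± 3.19 TPM) followed, and each overlapped in range with its neighbour in this order. Srd5a2 (2.48 ± 2.46 TPM) overlapped Esr1 (2.25 ± 0.609 TPM), and Nr3c2 (1.22 ± 0.283 TPM) overlapped Pgr (1.05 ± 0.627 TPM). Esr2 was again last at 0.119 ± 0.0159 TPM. Fkbp5 thus lay above the other members in every WT penis, and in the tumors its range overlapped those of Srd5a3 and Nr3c1. The ratio of Esr1 to Nr3c1 was 0.167, 0.167 and 0.175 in the tumors and 0.0276, 0.0299 and 0.0281 in the WT penises, a log2 difference of 2.57 (p = 0.1, exact two-sided permutation test, the smallest possible).

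**Figure D5:**
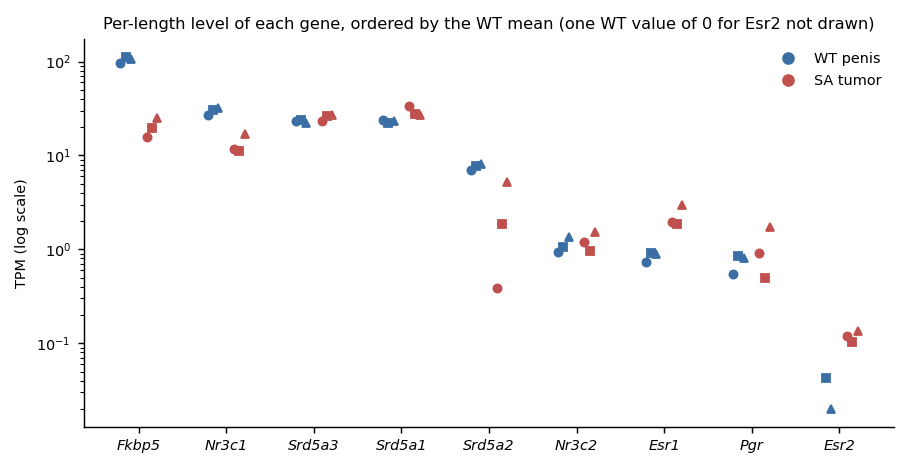
Per-length level of each of the 9 genes in every sample, in deposited TPM on a log axis, ordered by the WT mean, with WT penises in blue, SA tumors in red and symbols for the replicates. Fkbp5 falls from the top of the WT order to between Srd5a3 and Nr3c1 in the tumors, and Srd5a2 spreads over the SA tumors more than any other member plotted, with the WT value of 0 for Esr2 not drawn.

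Of 16 chaperones and immunophilins, the partner proteins of the receptors, 2 were higher and 2 lower (25.0% called, against 37.6% of all genes), with a median log2 fold change of 0.09. The higher count was 0 without WT penis 2 or 3 and 1 without WT penis 1 or SA tumor 1 or 2. It was 4 with upper quartile scaling and 8 with scaling by library totals only, which moved all genes upward. Hspa8 (0.53, called in 14 of 16 alternatives) and Hspa4 (0.39, 8 of 16) rose, and the Hsp40 gene Dnajb1 (-0.90) and the ubiquitin ligase gene Stub1 (-0.80) fell. Fkbp4, the immunophilin that competes with Fkbp5 for the receptor complex, measured 127, 133 and 108 CPM in the SA tumors and 118, 113 and 113 CPM in the WT penises, with no call (adjusted p = 0.455). Of 24 coregulators, 4 were higher and 2 lower (25.0% called), with a median of 0.03. The higher count was 1 without WT penis 1, 2 without SA tumor 2 or WT penis 2 or 3, and 6 with scaling by library totals only. The coactivator genes Ncoa1 (-1.30) and Ncoa3 (-0.75, called in 15 of 16 alternatives) fell, and Ppargc1a (1.20, 13 of 16) and the arginine methyltransferase gene Prmt1 (0.75) rose.

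Of 11 genes listed as following mineralocorticoid action in epithelia, 10 were tested, 3 were higher and 5 lower (80.0% called, against 37.6% of all genes), with a median log2 fold change of -0.95. Scnn1a, the alpha subunit of the epithelial sodium channel, measured 92.9, 103 and 82.8 CPM in the SA tumors and 257, 252 and 261 CPM in the WT penises (log2 fold change -1.46, adjusted p = 1.46e-05). Fxyd4 (-1.62) and Usp2 (-1.40) fell, while Atp1b1 (1.31) and the gamma subunit gene Scnn1g (0.79) rose. Among 26 androgen-responsive genes, 24 were tested, 10 were higher and 5 lower (62.5% called), with a median of 0.58. That is 41.7% higher and 20.8% lower, against 20.1% and 17.5% of all genes. Krt19 (4.17) and Homer2 (1.96) rose, and Dbi (-1.08), Ndrg1 (-1.05) and Maf (-0.95) fell. Azgp1 had 330 counts in the tumors and 1 in the WT penises, a depth-scaled ratio of 136 with a 95% counting interval of 24.2 to 5369. It passed the low-count filter only through the tumors, so its call is no support, though the higher count of the list includes it.

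Of 8 membrane steroid receptors, 7 were tested, 1 was higher (2 without SA tumor 1) and 3 lower, with a median of -0.06. That is 57.1% called and 42.9% lower, against 37.6% and 17.5% of all genes. The membrane progestin receptor gene Paqr5 measured 9.55, 14.6 and 11.7 CPM in the SA tumors and 77.6, 75.3 and 73.0 CPM in the WT penises (log2 fold change -2.66, adjusted p = 5.34e-06). Its relatives Paqr6 (-1.99) and Paqr8 (1.34) went in opposite directions, and Pgrmc2 (-1.06) fell. Of 42 other nuclear receptors, 33 were tested, 5 were higher and 11 lower (48.5% called, 33.3% lower, against 37.6% and 17.5% of all genes), with a median of -0.28. The lower count was 6 without WT penis 2, 7 without WT penis 3 and 8 to 9 without any other sample, and the higher count was 3 without WT penis 2. The retinoic acid receptor gene Rarg (-1.39) and the clock repressor gene Nr1d1 (-1.50, called in 8 of 16 alternatives) fell. Pparg (2.56) and Rorb (3.79) rose. Nr2e3 had 0 counts in the WT libraries and was at least 15.8-fold higher in the tumors, by the mean of the floors of 3 counts per library. It passed the low-count filter only through the tumors, so its call is no support, though the higher count of the list includes it.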

How the data were processed

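RNA was sequenced as paired ends with a stranded protocol on an Illumina HiSeq instrument. Alignment to mm10 by the authors used TopHat, with quality checks in FastQC and counting in HTSeq, and the strand setting and tool versions are not given in the sources used here. The authors deposited raw counts per RefSeq transcript, with FPKM and TPM values that the authors derived from them. Reads fitting several transcripts were counted in each row, so the row with the highest mean count stood for its gene.

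Counts were fitted in R 4.3.3 with edgeR 4.0.16 over all 6 samples. filterByExpr (minimum of 10 counts, scaled to depth, in 3 samples, and a total of 15) left 16336 genes. TMM scaling, robust quasi-likelihood fits, the F-test and Benjamini-Hochberg adjustment over every gene followed, with an adjusted p under 0.01 as the call and a log2 fold change of 2 in size as the second threshold. The SE was the log2 fold change divided by the root of F, and log CPM used a prior count of 2. The script was tested on simulated data. No source says whether samples of a group came from separate litters, and p-values measure only the spread between these samples. TPM was used for levels between genes and for exact permutation tests of ratios, and FPKM and CPM for an alternative to them. Alternatives were DESeq2 1.42.0, limma-voom (limma 3.58.1), other scalings and filters, other rows per gene, a replicate block and each sample left out. Counting intervals and floors cover counting error only.

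The members and the gene lists were chosen with earlier results of these data known, so the share called in a list is a description and not a test. Named genes are all members, the 3 largest calls per direction in each list at a mean of 50 counts, label-check genes, and for each called member the 2 nearest profiles at a mean of 100 counts. A few of the genes so chosen are left unreported. Outside the rule, Hsd11b1, Hsd11b2, Fkbp4, Hsd17b7, H6pd, Tat and the further glucocorticoid-responsive genes were named after their values were seen, as were the genes of the closing observations. Hsd17b8, Sts, Ly6g and Spink1 are not analysed here. The motifs were chosen after the fits had been seen, and the CCAAT and GC boxes after a first search of the others. Gene spans and promoters are from RefSeq, GRCm38.p6, and 8 of the 9 members had a promoter entry. Overlaps of genes are from GENCODE M21.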

Additional observations from a re-analysis of the deposited data

How the results depend on the processing

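Under library totals only, all genes moved up by a median of 0.29 on the log2 scale, the calls became 5248 higher and 1806 lower in place of 3283 and 2865 (74.4% against 53.4% higher), and the uncalled Nr3c2 (0.054), Srd5a1 (0.26) and Srd5a3 (0.063) changed sign. With upper quartile scaling Srd5a1 was 0.035. Among samples left out, Srd5a1 ranged from -0.13 to 0.06 (0.057 without SA tumor 3 and 0.039 without WT penis 1) and Pgr from -0.41 to 0.47 (-0.41 without SA tumor 3). Members called ranged from 2 to 3 over the samples left out, and members past both thresholds from 1 to 2, the second being Srd5a2 without SA tumor 3. DESeq2 called 4 members. Genes called ranged from 2361 to 3260 higher and from 2055 to 2894 lower over the samples left out, and glucocorticoid-responsive genes called lower from 10 to 14. The log2 ratio differences ranged from -1.40 to -1.24 for Nr3c1 to Nr3c2, from 2.55 to 2.61 for Esr1 to Nr3c1 and from 0.03 to 0.30 for Srd5a1 to Srd5a3.

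Samples sharing a replicate number had residual correlations of -0.13, -0.10 and 0.02, so the numbers were not treated as pairs. With the replicate block 2809 genes were higher and 2446 lower, 2 members were called, and Esr1 lost its call (1.01), while no other member changed its call. SA tumor 2 correlated best with WT penis 1 and not with its own number. Where a call was lost or gained the cause was not tested. Depth limits Esr2, with at most 3 counts in a WT library, and Srd5a2, with 5 counts in SA tumor 1. The coefficient of biological variation was 0.222 among SA tumors and 0.130 among WT penises.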

Other observations

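The WT penises differed among themselves in several quickly induced genes. Dusp1, a phosphatase gene of the glucocorticoid-responsive list, measured 40.5, 543 and 141 CPM in WT penises 1, 2 and 3 and 36.3, 43.6 and 50.4 CPM in the SA tumors. Per2, a clock gene, measured 20.7, 50.5 and 144 CPM against 15.4, 23.2 and 22.0 CPM, and Zfp36, an mRNA decay factor gene, 65.3, 238 and 89.3 CPM against 58.0, 66.0 and 66.4 CPM. The nuclear receptor gene Nr4a1 measured 8.09, 124 and 119 CPM against 17.2, 19.5 and 16.1 CPM. WT penis 1 was the lowest WT sample for all of these genes, none of which passed the threshold. WT penis 1 was also the lowest WT sample for Tsc22d3, Fam107a and Zbtb16 and for Nr3c1, whose WT values ran from 132 to 140 CPM, and not for Fkbp5, at 284 to 311 CPM.

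Of 8 listed prostate and preputial gland markers, the 4 with enough counts to be tested were called higher in SA tumors. They are the lipid synthesis genes Scd1 (log2 fold change 1.51), Scd3 (2.22), Elovl3 and Awat1, the last of which, like Elovl3, had 0 counts in WT penises 2 and 3. Those last 2 passed the low-count filter only through the tumors, so their call is no support. The endogenous probasin gene, Pbsn, had 0 counts in every library, and these counts do not measure the activity of the Cre transgene. Beside the marker lists that follow, 20.1% of all genes were higher and 17.5% lower. Of 8 melanocyte and Schwann cell markers, 6 were tested and 3 were lower. Over the remaining lists, 1 of 10 tested leukocyte markers was higher, but 8 of 11 were without SA tumor 1 and 6 of 11 with DESeq2, and the median log2 fold change was 1.16. Of 8 proliferation markers 2 were higher (25.0%, near the share of all genes). The count was 4 without WT penis 1, 1 without WT penis 3 or SA tumor 1 or 2, and 0 without SA tumor 3 or WT penis 2. Of 11 endothelial markers 4 were lower, 7 without SA tumor 3, 1 without SA tumor 2 or WT penis 1 or 2, and 2 without WT penis 3. Of 3 tested adipocyte markers 1 was lower, and of 6 tested skeletal muscle markers 1 was higher and 2 lower, with lower counts of 1 to 2 and higher counts of 0 to 2 over the alternatives.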
